A study of Mus musculus with 6 samples.

Results

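Neurotrophic factors are secreted proteins that keep neurons alive and maintain their contacts, and 9 genes of this kind, 4 ligands and 5 receptors, were examined. The ligands were Bdnf (brain-derived neurotrophic factor), Gdnf (glial cell line-derived neurotrophic factor), Cntf (ciliary neurotrophic factor) and Lif (leukemia inhibitory factor). The receptors were Ngfr (p75, which binds all neurotrophins), Ntrk2 and Ntrk3 (the receptor kinases TrkB and TrkC), Gfra1 (the GDNF-binding subunit) and Cntfr (the CNTF-binding subunit). The members were taken by name, through the RefSeq accession of each probe that was not a control. They had 15 of the 55681 probes. Of the 9 genes, 8 were tested among 20900 genes, since 3 or more of the 6 arrays held one of their probes well above background.

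RNA came from the gastrocnemius, a mostly fast-twitch calf muscle, of male C57BL/6J mice fed a standard diet, with no genetic alteration or treatment. Young mice were 13 weeks old (n = 3) and aged mice 26 months old (n = 3), and each mouse had 1 single-colour Agilent array, all on 1 slide. The comparison asks how gene expression in this muscle differs with age, and here it is read for signals between nerve, Schwann cell and muscle fibre. Signals are given as multiples of the 75th percentile of the probes on the same array, or as log2 of that multiple, and differences as log2 fold change (aged minus young). Since another probe can bind with another strength, no probe's level is set against another's.

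Motor neurons depend on factors released by the muscle fibres they contact and by the Schwann cells that wrap their axons. Neurotrophins such as BDNF, NT-3 and NT-4 act through Trk receptor kinases and p75, ligands of the GDNF family through a GFR alpha subunit joined to the kinase RET, and CNTF and LIF through the LIF receptor and gp130 to JAK kinases and STAT3. CNTF is known as a product of myelinating Schwann cells, whereas GDNF and NT-4 are also made by muscle fibres, and GDNF expression is known to respond to loss of the nerve.

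All 6 arrays were kept. The 75th percentiles of signal lay from 210 to 300 for young and from 271 to 311 for aged mice, 48.7% to 53.8% of probes were well above background, and any pair of arrays correlated with r of at least 0.966 over genes. The 7 muscle fibre markers listed, Acta1, Ckm and Myh4 among them, were all tested, and their summed signal was 5004 to 5981 in young and 4060 to 5386 in aged mice. Young mouse 3 was far below young mice 1 and 2 for some genes. These included Mylpf (3.88 against 30.5 and 23.0), Pecam1 (0.198 against 0.748 and 0.790), Tek (0.0740 against 0.353 and 0.284) and Lyz2 (0.0993 against 0.504 and 0.375). For Acta1, Ckm and Myh4 it was the highest of the young mice. The cause was not tested. Summed signals that did not overlap between the groups were those of erythrocyte markers (586 to 821 in young and 262 to 417 in aged mice), connective tissue cell markers (388 to 420 and 177 to 357), pericyte markers (49.6 to 51.3 and 27.2 to 43.9), macrophage markers (17.4 to 19.0 and 19.2 to 24.4), endothelial markers (13.3 to 15.7 and 9.54 to 11.6) and the epithelial markers Krt18 and Krt8 (0.300 to 0.755 and 14.6 to 45.9), and their part in the results below was not tested. Of the 4 epithelial markers listed, Epcam and Cdh1 were well above background on 0 arrays. A sum mostly follows its brightest probes. Cdh5 and Kdr were lower, but Pecam1 and Tek were higher in aged mice (median log2 fold change 0.05 over the 4 endothelial markers). Of the 6 connective tissue cell markers, 4 were lower and 2 higher. Of the macrophage markers tested, 4 were higher and 1 lower. The erythrocyte and pericyte markers were all lower. In whole muscle, fewer cells of a type and less RNA per cell cannot be told apart.

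The largest age difference among the 9 genes was that of Gdnf. Its signal (NM_010275) was 0.508, 0.401 and 0.534 times the 75th percentile in young mice 1 to 3 and 1.14, 1.31 and 1.09 times in aged mice 1 to 3. Every aged mouse was above every young mouse, and the gap between the groups was wider than the spread within either. The mean log2 signal was -1.07 ± 0.22 (SD, n = 3) in young and 0.24 ± 0.14 (SD, n = 3) in aged mice. This was a log2 fold change of 1.31 (standard error 0.18), or 2.47-fold with a 95% confidence interval of 1.83 to 3.33, with an unadjusted p of 0.000196 in limma. The adjusted p in limma was 0.0604, so Gdnf did not pass the threshold of 0.05 over 20900 genes. It lay between 0.0465 and 0.218 over 19 other settings, and was under 0.05 in 2 of them, whereas the log2 fold change was between 0.98 and 1.39 in all 19. The filters, probe summaries, series matrix and variance trend among these left the values of its 1 probe unchanged and could not move the fold.

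Cntf lay the other way. Its brighter probe (NM_170786) gave 2.59, 3.70 and 1.94 times the 75th percentile in young mice and 1.86, 1.30 and 1.29 times in aged mice. The groups did not overlap, although young mouse 3 and aged mouse 1 were close. Aged mice had a mean log2 signal of 0.55 ± 0.30 (SD, n = 3), and young mice one of 1.41 ± 0.47 (SD, n = 3). The log2 fold change was -0.86 (standard error 0.28, unadjusted p = 0.0191 and adjusted p = 0.261 in limma), or 0.550-fold with a 95% confidence interval of 0.346 to 0.876. The other Cntf probe, to the same transcript, gave 0.598, 0.825 and 0.590 in young and 0.470, 0.298 and 0.394 in aged mice, and its log2 fold change was -0.80. Both probes thus separated the groups in the same direction. The Cntf gene lies within an annotated read-through transcript (Gm44505, Zfp91-Cntf), and signals of the 2 transcripts were not separated here.

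**Figure D1:**
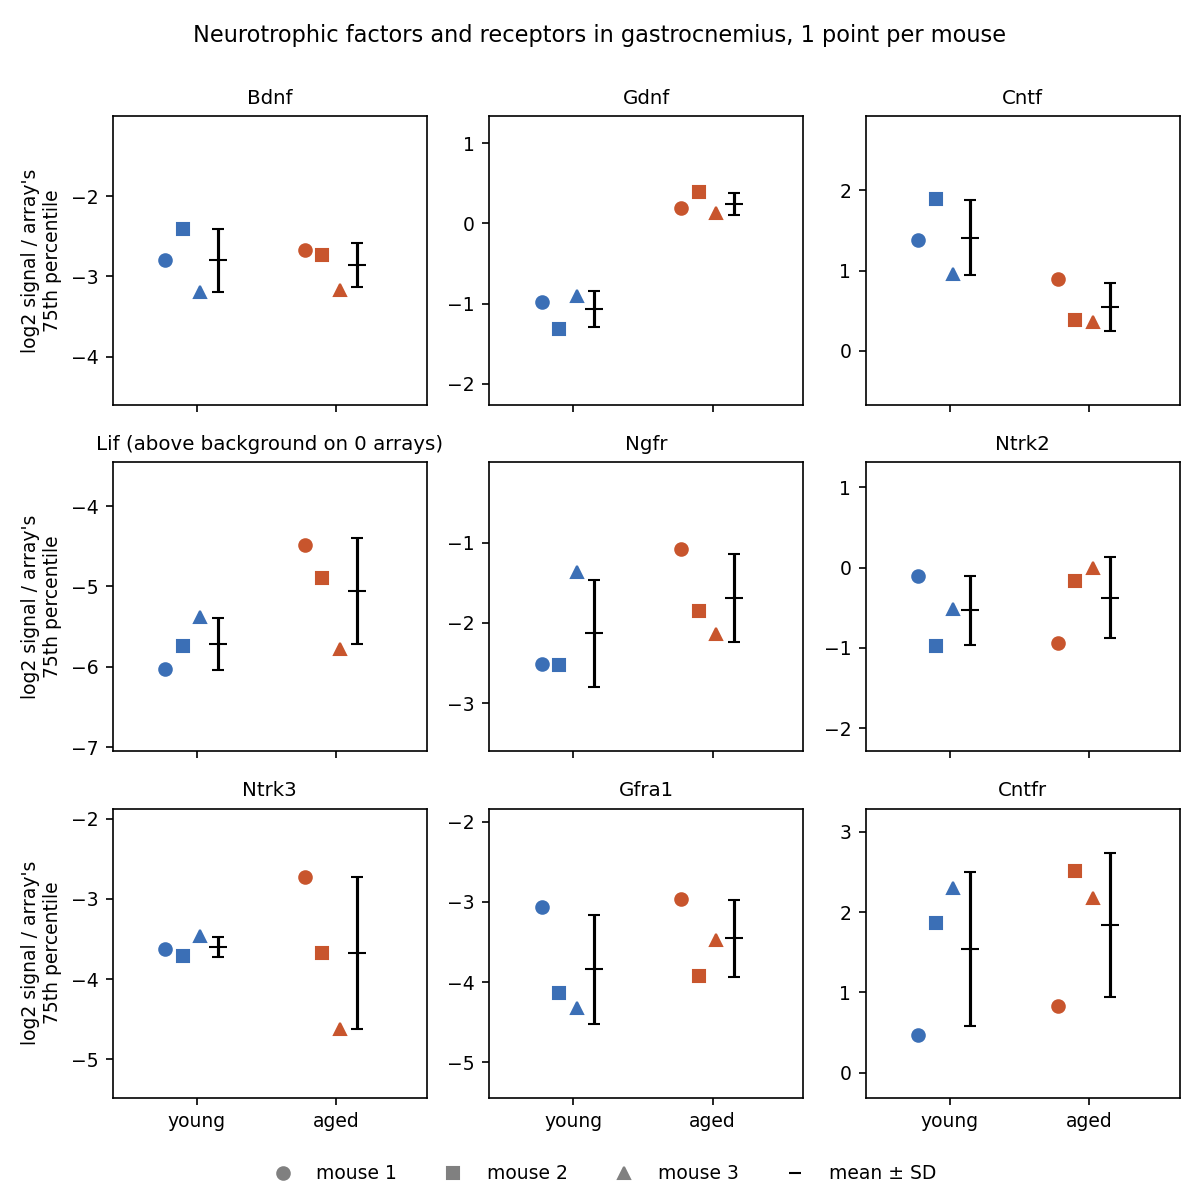
Log2 signal of the probe that stands for each of the 9 genes, relative to the 75th percentile of the array (vertical axis, the same 3.6-unit span in every panel, placed at another level for each gene), in young (blue) and aged (orange) mice. Each point is 1 mouse, the symbol gives the mouse number, and the black bar is the mean ± SD of 3 mice. Points of the groups are apart for Gdnf and Cntf and overlap for the other 7 genes.

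The sequences before the transcription starts of Gdnf and Cntf are shown because these are the genes whose groups did not overlap. They are the 250 bases upstream of each start that the RefSeq promoter table (GRCm38.p6) gives, 2 starts for Gdnf and 1 for Cntf, read 5′ to 3′ on the gene's strand, with capitals at the E-box letters CANNTG, the core motif of myogenic factors such as myogenin. The window before the first Gdnf start is chr15:7809798-7810047, plus strand, and that before the second is chr15:7813477-7813726, plus strand. The window before the Cntf start is chr19:12765633-12765882, minus strand.
Gdnf, first start: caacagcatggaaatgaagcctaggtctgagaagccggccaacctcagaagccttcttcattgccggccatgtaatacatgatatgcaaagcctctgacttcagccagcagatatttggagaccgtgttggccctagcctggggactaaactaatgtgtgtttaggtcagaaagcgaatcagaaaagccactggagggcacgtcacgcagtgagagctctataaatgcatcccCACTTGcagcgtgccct
Gdnf, second start: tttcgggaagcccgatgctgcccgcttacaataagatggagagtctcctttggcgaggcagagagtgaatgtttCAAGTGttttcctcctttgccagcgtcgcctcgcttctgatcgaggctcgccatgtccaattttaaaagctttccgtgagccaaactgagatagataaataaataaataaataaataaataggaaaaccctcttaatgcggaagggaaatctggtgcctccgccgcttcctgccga
Cntf: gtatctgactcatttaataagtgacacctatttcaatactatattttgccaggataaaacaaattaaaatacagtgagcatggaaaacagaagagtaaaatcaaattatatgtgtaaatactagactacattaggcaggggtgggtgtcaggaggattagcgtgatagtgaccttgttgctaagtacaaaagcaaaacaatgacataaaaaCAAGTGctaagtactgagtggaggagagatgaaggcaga
Each of the 3 windows held 1 match to CANNTG, which reads the same on both strands as a pattern and was found in 66.2% of 32851 windows of this length, so a match does not set these genes apart. The stricter E-box CAGCTG, one form of the same pattern, was in 0 of the 3 windows and in 13.0% of all. The STAT pattern TTCNNNGAA was in 0 of the 3 and in 7.02% of all. The TATA box TATAAA, searched on both strands, was in the window of the first Gdnf start and in 12.4% of all. GC content was 50.8% and 46.8% for the Gdnf windows and 35.6% for Cntf.

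Of the remaining ligands, Bdnf overlapped between the groups and Lif could not be tested. Bdnf (NM_007540), which signals through TrkB, was 0.144, 0.188 and 0.109 times the 75th percentile in young mice and 0.158, 0.151 and 0.111 times in aged mice. The groups covered nearly the same range. Its log2 fold change was -0.06 with a 95% confidence interval of -0.66 to 0.54 (adjusted p = 0.931 in limma). Lif (NM_008501), a cytokine known to be induced in injured muscle and nerve, was well above background on none of the 6 arrays, at 0.0154 to 0.0241 times the 75th percentile in young and 0.0182 to 0.0447 times in aged mice. It was not tested, and no fold is given for it.

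The 5 receptors all overlapped between the groups. Ngfr (NM_033217) was 0.176, 0.174 and 0.388 times the 75th percentile in young and 0.474, 0.276 and 0.228 times in aged mice, so that young mouse 3 was within the range of the aged mice. Its log2 fold change was 0.44 with a 95% confidence interval of -0.52 to 1.40 (adjusted p = 0.639 in limma). When 1 mouse was left out, its log2 fold change ranged from 0.14 (without aged mouse 1) to 0.82 (without young mouse 3). Cntfr (NM_001136056) varied widely within both groups. It was 1.38, 3.65 and 4.91 times the 75th percentile in young and 1.77, 5.70 and 4.53 times in aged mice, with mouse 1 the lowest in each group. Its log2 fold change of 0.30 had a 95% confidence interval of -1.12 to 1.71 (adjusted p = 0.840 in limma).

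The remaining receptors had several probes or were not well above background on every array. The brightest Ntrk2 probe (NM_008745) was 0.927, 0.509 and 0.699 times the 75th percentile in young and 0.521, 0.888 and 0.997 times in aged mice, which overlapped. Its log2 fold change was 0.16 with a 95% confidence interval of -0.61 to 0.93 (adjusted p = 0.840 in limma). Another probe to the same transcript, well above background on 3 arrays, gave a log2 fold change of -0.45, and the probe named for the transcript NM_001025074 was well above background on 0 arrays. Where these probes lie on the TrkB transcripts is not given in the sources used here, so full-length and truncated forms were not separated. Of the 4 Ntrk3 probes, 3 were well above background on no array. The fourth (NM_008746) ranged from 0.0763 to 0.0910 in young and from 0.0406 to 0.151 in aged mice, with aged mouse 1 the highest and aged mouse 3 the lowest of all 6. Its log2 fold change was -0.08 (95% confidence interval -1.13 to 0.98). Gfra1 (NM_010279), well above background in 1 young and 2 aged mice, ranged from 0.0502 to 0.120 in young and from 0.0660 to 0.129 in aged mice, with a log2 fold change of 0.38 (95% confidence interval -0.55 to 1.32, adjusted p = 0.677 in limma). Leaving out 1 mouse gave log2 fold changes from 0.14 (without aged mouse 1) to 0.77 (without young mouse 1). As folds, the 95% confidence intervals ran from 0.697 to 2.65 for Ngfr, 0.656 to 1.90 for Ntrk2, 0.456 to 1.97 for Ntrk3, 0.683 to 2.50 for Gfra1 and 0.461 to 3.27 for Cntfr, so these values do not show that the receptors stayed the same. Ntrk2, Ntrk3 and Gfra1 overlap other annotated transcripts (Gm53063, Gm39038, and Gm46650 and Gm10007).

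Of the 8 genes tested, 0 passed the adjusted threshold in limma, against 0.254% of all genes (0.196% higher and 0.0574% lower in aged mice). Gdnf and Cntf, 2 of the 8, had an unadjusted p under 0.05, against 14.4% of all genes (6.07% higher and 8.38% lower). The groups did not overlap for the same 2 genes, against 21.8% of all genes (7.92% with aged mice higher and 13.9% with aged mice lower). The median log2 fold change was 0.23 over the 8 genes, 5 higher and 3 lower in aged mice, and -0.06 over all genes. With 3 mice per group, the smallest p of the exact permutation test (two-sided) is 0.1, the value of both Gdnf and Cntf.

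The families of these ligands were followed in 53 further genes, all with probes on the array, of which 48 were tested. None passed the adjusted threshold in limma, and 11 had an unadjusted p under 0.05, 5 higher and 6 lower in aged mice, where 14.4% of all genes had one. The groups did not overlap for 14 of the 48 genes, against 21.8% of all genes, and the median log2 fold change was -0.07.

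Among the neurotrophin ligands beside Bdnf, Ntf5 and Ntf3 were lower in aged mice. Ntf5, which encodes NT-4, was 2.50, 1.57 and 2.41 times the 75th percentile in young and 1.13, 1.27 and 1.11 times in aged mice. Ntf3, which encodes NT-3, the ligand of TrkC, was 1.15, 1.20 and 1.83 times in young and 0.763, 0.902 and 0.739 times in aged mice. The highest aged mouse lay under the lowest young mouse for both genes. The log2 fold changes were -0.86 for Ntf5 and -0.77 for Ntf3, with unadjusted p of 0.00638 and 0.0116 and adjusted p of 0.186 and 0.227 in limma. Of the receptors and sorting receptors of this family, Sorcs1 was higher in aged mice, from 0.146 to 0.218 against 0.0754 to 0.132 in young mice (log2 fold change 0.85, adjusted p = 0.247 in limma, and 0.28 with normexp background correction), whereas Sort1, the partner of p75 for precursor neurotrophins, had a log2 fold change of 0.02.

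The GDNF family differed in direction between its ligands. Nrtn, which encodes neurturin and signals through GFRA2, was 10.8, 19.1 and 16.4 times the 75th percentile in young and 9.08, 7.71 and 5.49 times in aged mice. All aged mice were below all young mice, opposite to Gdnf. Its log2 fold change was -1.05 (adjusted p = 0.202 in limma). Artn, which encodes artemin, was 0.182, 0.130 and 0.147 times in young and 0.192, 0.500 and 0.270 times in aged mice, and aged mouse 1 was only just above the young mice (log2 fold change 0.97, adjusted p = 0.299 in limma). The log2 fold change of Artn was 0.59 without aged mouse 2, 0.36 with normexp background correction and 0.34 with the slide row as a block. Among the receptors, Ret was too variable to compare, from 0.305 to 1.21 in young and from 0.0617 to 0.554 in aged mice (95% confidence interval -3.22 to 1.14, and -0.05 without aged mouse 1). Gfra2, Gfra3 and Gfra4 had log2 fold changes of -0.35, -0.40 and -0.62, with overlapping groups. Ncam1, an adhesion molecule that can also bind GDNF and is known to return to the fibre surface after loss of the nerve, had a log2 fold change of 0.98 (adjusted p = 0.233 in limma), but its 3 probes gave 0.98, 1.26 and -0.44.

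CNTF and LIF share the signalling receptors Lifr and Il6st, and neither passed the adjusted threshold. Lifr, the LIF receptor, was 16.1, 17.7 and 18.4 times the 75th percentile in young and 12.0, 14.4 and 9.09 times in aged mice, with no overlap (log2 fold change -0.58, adjusted p = 0.294 in limma), and its other probes gave -0.43 and -0.39. Il6st, which encodes gp130, was 23.9, 19.0 and 6.80 times in young and 31.3, 22.8 and 37.7 times in aged mice, which overlapped (log2 fold change 1.04, 95% confidence interval -0.09 to 2.18, adjusted p = 0.381 in limma). Young mouse 3 was far below the others, and without it the log2 fold change was 0.49. Of the JAK-STAT relay, Jak2 (-0.54) and Ptpn11 (-0.48) were lower and Tyk2 (0.67) was higher in aged mice, at unadjusted p of 0.0421, 0.0175 and 0.0477 and adjusted p of 0.330, 0.255 and 0.342 in limma. Jak2 was at -0.33 without aged mouse 1, and Tyk2 at 0.41 without young mouse 3. Stat3, the transcription factor of this relay, was 21.6, 25.8 and 21.4 times the 75th percentile in young and 27.3, 27.5 and 66.3 times in aged mice, with aged mouse 3 far above the others (log2 fold change 0.69, adjusted p = 0.429 in limma), and its target Socs3 was also highest in that mouse, at 27.9 against 1.78 to 5.05 in the other 5. Among the 3 adaptors of p75 and the 5 proteases listed for the processing of neurotrophin precursors, 0 genes had an unadjusted p under 0.05 in limma (14.4% of all genes did). The groups did not overlap for 1 of the 5 proteases, lower in aged mice. The 6 genes of the Trk relay (Shc1, Frs2, Plcg1, Grb2, Gab1 and Sos1) all overlapped between the groups, where 21.8% of all genes did not. Among other secreted trophic factors, Manf, an endoplasmic reticulum stress protein with trophic activity, was 2.79, 2.14 and 2.62 times in young and 4.19, 5.24 and 9.52 times in aged mice (log2 fold change 1.25, adjusted p = 0.183 in limma), whereas its relative Cdnf had a log2 fold change of -0.19 (adjusted p = 0.585 in limma).

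**Figure D2:**
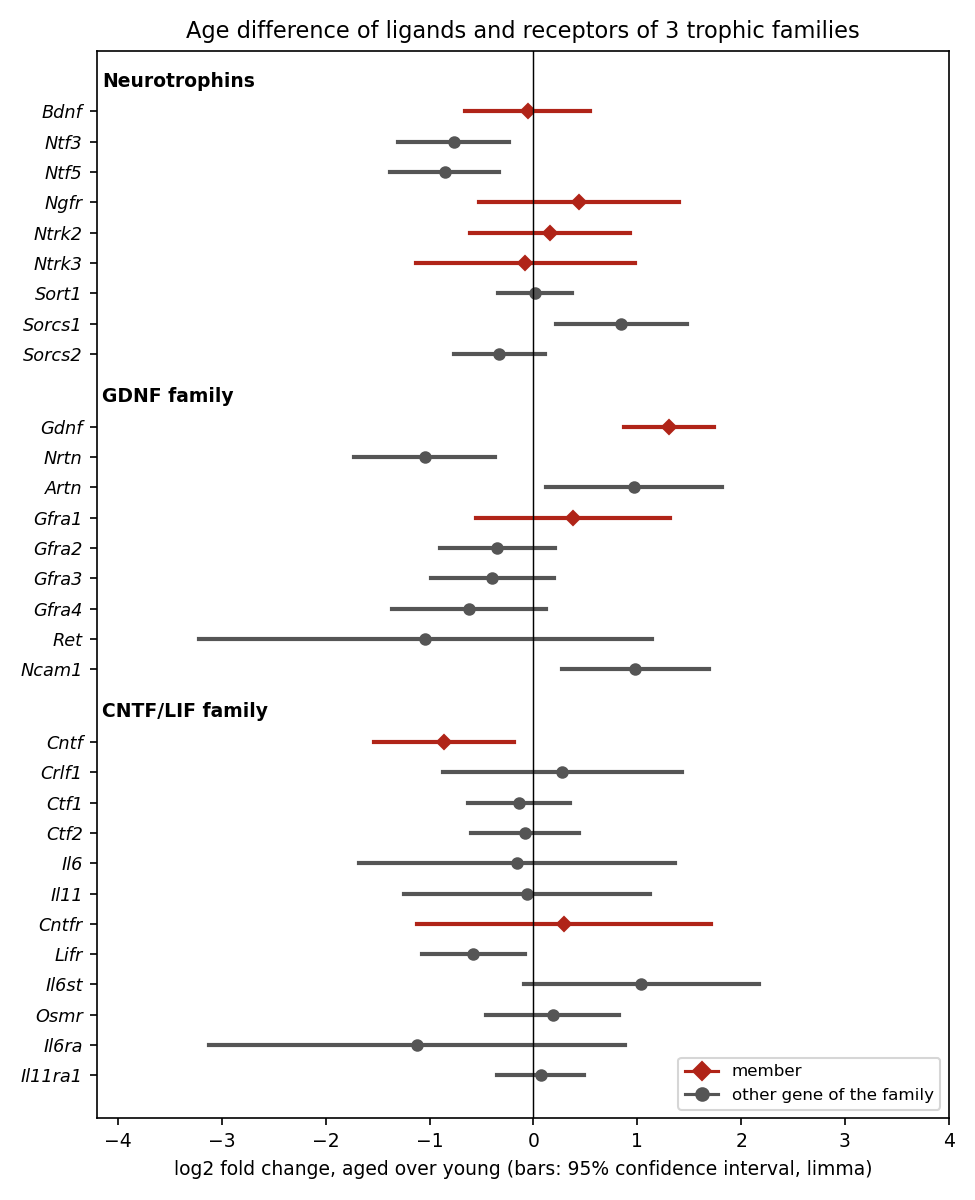
Log2 fold change (aged over young, points) with 95% confidence interval from limma (bars) for tested ligands and receptors of the neurotrophin, GDNF and CNTF/LIF families. Red diamonds are members of the 9-gene set and grey circles other genes of the family. The intervals of Gdnf, Artn, Ncam1 and Sorcs1 lie above 0, those of Ntf3, Ntf5, Nrtn, Cntf and Lifr below it, and none of these genes passed the adjusted threshold.

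Genes of the muscle's response to loss of its nerve and of Schwann cells were read beside Gdnf and Cntf. Of 13 denervation response genes, acetylcholine receptor subunits included, 11 were higher in aged mice and 10 had an unadjusted p under 0.05 (14.4% of all genes did), with a median log2 fold change of 1.75 and 0 past the adjusted threshold in limma. Their summed signal was 41.4 to 51.8 in young and 157 to 304 in aged mice. Sln alone was 8.88, 20.3 and 14.0 in young and 244, 74.0 and 76.7 in aged mice 1 to 3. The highest sum, in aged mouse 1, was thus mostly Sln. The median difference of the denervation response genes from the young mice was 1.01, 1.60 and 2.11 in aged mice 1 to 3, so it was lowest in that mouse. The difference of Gdnf was highest in aged mouse 2. The 12 markers of myelinating Schwann cells were all tested, with a median log2 fold change of -0.76. Of these, 10 were lower in aged mice, as were 11891 of all 20900 genes. In limma, 9 had an unadjusted p under 0.05, 8 lower and 1 higher (14.4% of all genes had one). The adjusted threshold was passed by 1 of the 12 markers, Prx, and by 0.254% of all genes. Their summed signal, 28.1 to 47.6 in young and 26.9 to 43.7 in aged mice, overlapped, and Mbp was 1 of the 2 that were higher (log2 fold change 1.33, adjusted p = 0.0525 in limma). Of 7 Schwann cell markers that do not depend on myelin, 4 were tested, with a median log2 fold change of -0.32 and 0 past the adjusted threshold in limma. Sox10 (-0.92) and S100b (-0.60) had an unadjusted p under 0.05 in limma, as had 14.4% of all genes. The groups did not overlap for these 2 genes, nor for 21.8% of all genes. L1cam (-0.05) and Foxd3 (-0.04) overlapped, and Erbb3, Gfap and Cdh19 were well above background on 0 arrays. The summed signal of the 4 genes tested was 1.70 to 2.22 in young and 1.24 to 1.71 in aged mice. Of the 8 motor axon markers, only Prph and Snap25 could be tested (log2 fold changes -0.55 and 0.01). Among those not tested, Slc18a3 was well above background on 2 young and 0 aged arrays. Nefh and Syt1 were so on 0 young arrays and 1 aged array each, and Nefl, Nefm and Chat on 0 arrays. The part of any of these lists in the values of Gdnf, Cntf, Ntf3 or Ntf5 was not tested. These lists and the 9 genes were measured on the same 6 arrays.

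**Figure D3:**
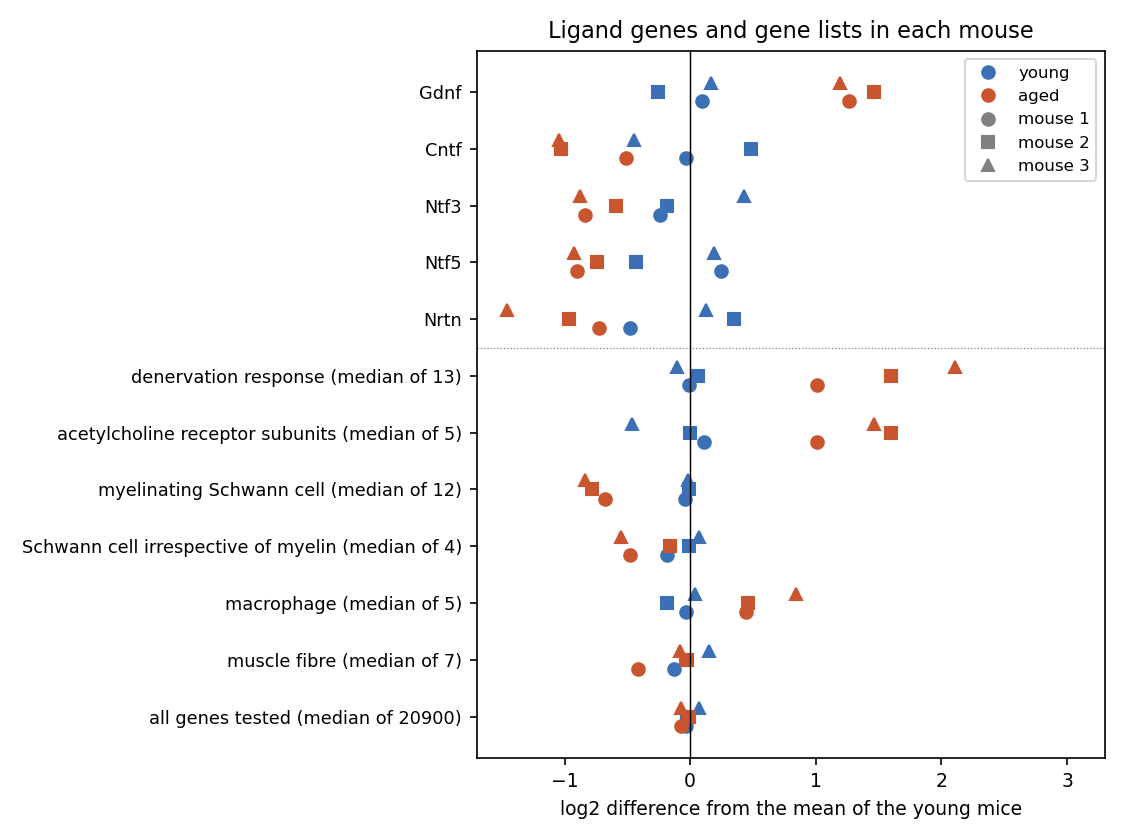
Difference of each mouse from the mean of the young mice on the log2 scale (horizontal axis) for 5 ligand genes (above the dotted line) and as the median over the tested genes of 7 lists (below it), with young mice in blue and aged mice in orange. Aged mice lie to the right for Gdnf and the denervation response genes and to the left for Cntf, Ntf3, Ntf5, Nrtn and the myelinating Schwann cell markers, while the median of all 20900 genes stays near 0.

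The genes whose log2 signal followed that of Gdnf most closely over the 6 arrays were Cpne2 (Pearson r = 0.993), Rrp36 (r = 0.988) and Trpm6 (r = 0.982), out of the tested genes with a symbol. The 6 points share their arrays and fall into 2 age groups, so these values are a description. Their log2 fold changes were 2.59, 0.37 and 0.60, and Cpne2, a copine, passed the adjusted threshold (adjusted p = 0.0213 in limma, 0.00576 to 0.110 over 19 other settings).

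The position of the arrays on the slide differed between the groups, since 3 young mice and aged mouse 1 were in row 1 and aged mice 2 and 3 in row 2. Within row 1, where aged mouse 1 alone was compared with the young mice, the log2 fold change was 1.26 for Gdnf, -0.51 for Cntf, -0.90 for Ntf5, -0.83 for Ntf3 and -0.73 for Nrtn. Row 2 held no young mouse, so for aged mice 2 and 3 the effects of row and of age cannot be told apart.

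**Figure D4:**
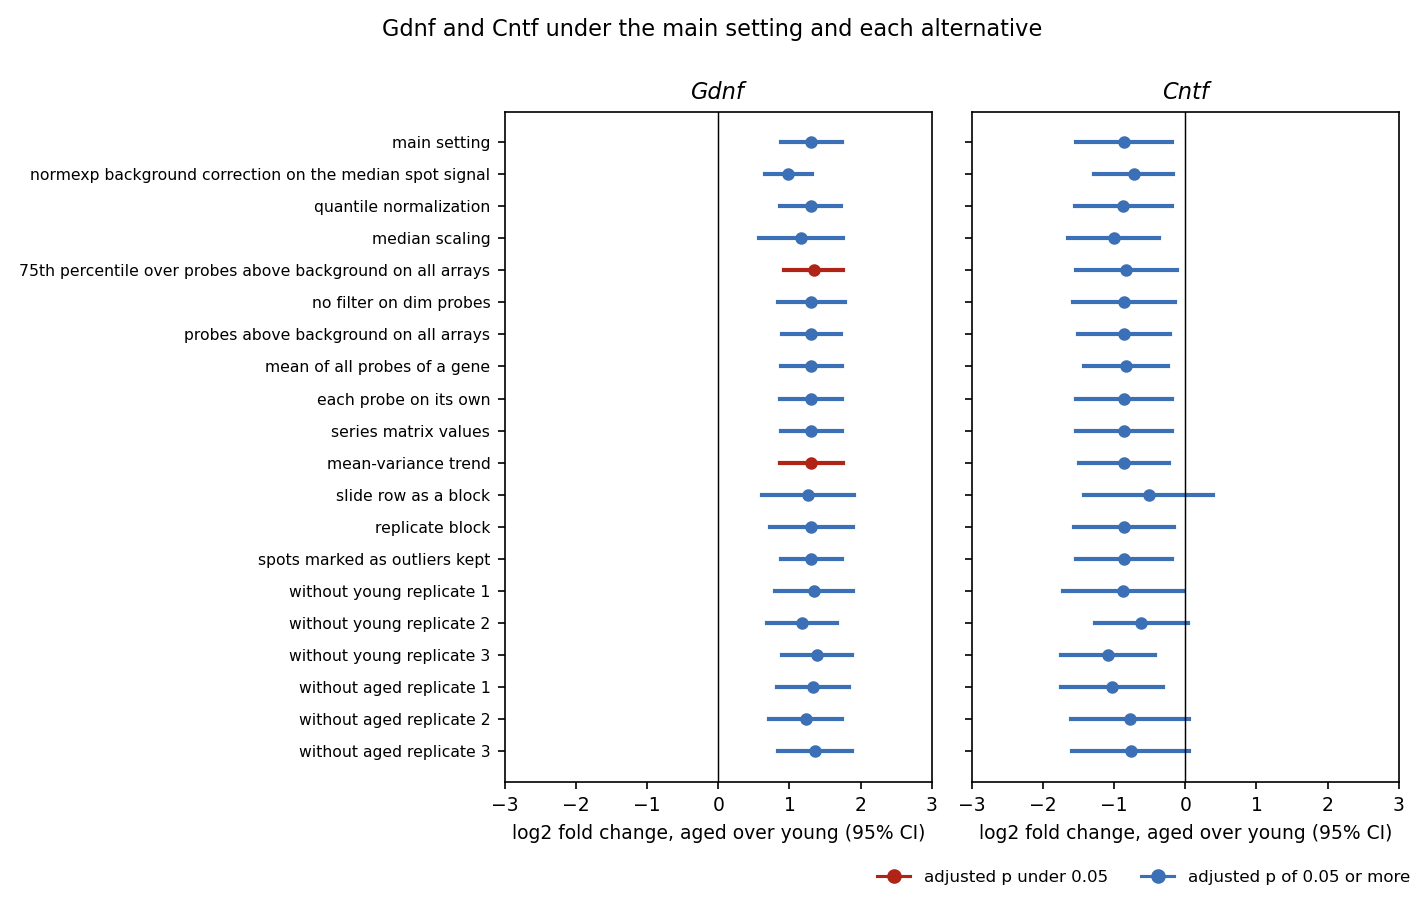
Log2 fold change of Gdnf (left) and Cntf (right), aged over young, with 95% confidence intervals from limma, under the setting used here and 19 others (vertical axis), red where the adjusted p was under 0.05. Gdnf stays between 0.98 and 1.39 and is red in 2 settings, and Cntf stays between -1.09 and -0.51 and is red in none. Some settings, such as the series matrix values and the variance trend, could not move either fold.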

How the data were processed

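The authors deposited 1 Agilent Feature Extraction file per mouse (version 11.0.1.1 per the file headers, 9.5 in the submitters' processing notes), with linear intensities. Per the file headers, Feature Extraction had subtracted background from the processed signal and detrended it within each array. Arrays had not been scaled to each other. Intensities in the series matrix were identical (largest log2 difference 0). The methods name no normalization or test.

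Control spots and spots marked as outliers (161 to 212 per array) were left out. Spots of a probe were averaged on the log2 scale, and the array's 75th percentile was subtracted. RefSeq accessions, without versions, gave a symbol to 28331 of 55681 probes (GRCm38.p6 table, whereas the array was designed on mm9, so probe coordinates are not given). A probe was kept when well above background on at least 3 of 6 arrays, and the kept probe with the highest mean stood for its gene. No spot was saturated. A probe not above background gives only a bound, and the number of arrays limits the precision.

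The age groups were compared in R 4.3.3 by lmFit and eBayes of limma 3.58.1, with age as the only term beside the intercept. Benjamini-Hochberg adjustment covered 20900 genes, at a threshold of 0.05. Nothing beyond the mouse labels says how samples were handled. The p-values rest on the spread between arrays, with each gene's variance moderated by that of all genes tested. With 1 array per mouse, differences between mice and between preparations or arrays cannot be told apart in that spread. All members, pathway genes with an unadjusted p under 0.05 and the 3 genes most like the member of largest change were to be named. Ret, Il6st, Stat3, Socs3, Sort1, Cdnf, Gfra2 to Gfra4 and the Trk relay were added for their role, and single markers after their values were seen. The values of 1 pathway gene are not reported here. The members and lists were chosen with earlier results of these data known. The alternatives were normexp (offset 50), 3 other scalings, other filters and probe summaries, the series matrix, outlier spots kept, a variance trend, a block for slide row or for replicate number, and each mouse left out in turn.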

Additional observations from a re-analysis of the deposited data

How the results depend on the processing

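Normexp used the median spot signal, since the mean is not in the files. Gdnf, Cntf, Ngfr, Gfra1 and the 11 pathway genes with an unadjusted p under 0.05 kept their direction under every alternative that gave a value. For a gene whose probe values an alternative left unchanged, as with the series matrix or a variance trend, the direction could not change. Gdnf crossed the threshold in limma in 2 alternatives, so that 1 member was called in each. These were the 75th percentile taken over probes above background on all arrays (adjusted p = 0.0465) and a mean-variance trend (adjusted p = 0.0480). When 1 mouse was left out, 0 members and 0 pathway genes were called. The log2 fold change then ranged from 1.18 to 1.39 for Gdnf (adjusted p from 0.0583 without aged mouse 1 to 0.218 without young mouse 2) and from -1.09 to -0.62 for Cntf.

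For genes other than the 4 described next, log2 fold changes over 1.5 times smaller with all mice, beside those already given, were those with normexp of Ngfr (0.18), Gfra1 (0.03), Ntf3 (-0.46), Ret (-0.51), Ncam1 (0.64) and Trpm6 (0.16), that of Ncam1 with the mean of all probes (0.60), those of Gfra1 (0.24) and Rrp36 (0.22) with median scaling, and that of Manf with the slide row as a block (0.75). That block made those of Ngfr (1.05), Gfra1 (0.88), Jak2 (-0.95), Tyk2 (1.01) and Ret (-3.03) larger.

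The direction of 4 members was not settled. With the slide row as a block it was reversed for Bdnf (0.13), Ntrk2 (-0.41), Ntrk3 (0.87) and Cntfr (-0.72), and with the mean of all probes for Ntrk2 (-0.14), whose probes differed in sign. Leaving out 1 mouse gave ranges of -0.25 to 0.14 for Bdnf (reversed without young mouse 2 or aged mouse 3), -0.059 to 0.45 for Ntrk2 (likewise), -0.55 to 0.40 for Ntrk3 (without aged mouse 3) and -0.24 to 0.80 for Cntfr (without young mouse 1 or aged mouse 2).

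Over all genes, 53 passed the threshold. Without a filter on dim probes 8 did, among 36710 genes tested. The count was 35 with probes above background on all arrays, and 1 to 199 when 1 mouse was left out (199 without aged mouse 1, 1 without aged mouse 3, 8 to 9 otherwise). The cause of the last was not tested. Median scaling moved the median of all genes by -0.15 on the log2 scale, and the split of genes called was 26 higher and 16 lower, against 41 and 12. It was 38 and 22 with normexp. With the replicate number as a block, 5 genes were called, 0 of them members. Deviations of mice of the same number from their group means had r of -0.06, -0.27 and 0.03 for numbers 1 to 3. Mice of different numbers had r from -0.21 to 0.35. These values show no sign that the numbers pair the mice, but so few arrays cannot settle it.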
